A study of Mus musculus with 32 samples.

Results

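The integrated stress response genes Atf4, Atf5, Ddit3, Nupr1, Trib3, Chac1, Asns, Psat1, Slc7a11 and Slc7a5 are described here, 10 of 17440 gene identifiers listed in at least 1 of 5 tables of normalised counts. They were taken by gene symbol, and all 10 were listed, and passed the filter on low values, in every table. The genes were chosen by name, with results of these data in view, in particular their normalised counts in the CTCF AID time course. The values of that time course, and the difference between 24 h and 12 h in RAD21 AID cells, are therefore given as a description with no test.

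The study sequenced mRNA from E14 mouse embryonic stem cells, in 32 libraries that form 16 groups of 2. Each line had a protein fused to a degron (AID), a tag that is ubiquitinated and destroyed when an auxin is added. CTCF AID cells, in which the loop-anchoring DNA-binding protein CTCF is tagged, were untreated or given 500 uM indole-3-acetic acid (IAA) for 12 h or 24 h. RAD21 AID cells, in which a subunit of the cohesin ring is tagged, were untreated or given 1 uM of the auxin analogue 5-Ph-IAA for 12 h or 24 h. A further pair of CTCF AID groups was labelled as grown in serum, at 0 h and 12 h of IAA. Another pair of CTCF AID groups carried a control hairpin or a hairpin against Chd4, the ATPase of the NuRD chromatin remodelling complex, with no IAA in their labels. The last 6 CTCF AID groups overexpressed a control, wild-type CTCF or a mutated CTCF whose mutation the labels do not give, each without IAA or with 12 h of it. The growth protocol gives serum-free medium with LIF, PD0325901 and CHIR99021 for every library, the serum groups included. No group holds cells without a degron treated with an auxin. In the degradation time courses, the serum groups and the overexpression control, the loss of a protein and the auxin itself cannot be told apart. The groups that overexpress CTCF with IAA are set against that control below, and the labels of the wild-type ones disagree. Nothing says that the libraries of a group came from separate cultures, so p-values measure the spread between these libraries, which may be technical.

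In the integrated stress response, kinases that sense amino acid shortage, unfolded proteins, haem shortage or double-stranded RNA phosphorylate the translation factor eIF2alpha. General translation then slows while that of Atf4 mRNA increases, and the ATF4 protein turns on genes for amino acid synthesis, amino acid uptake and tRNA charging. ATF5 is translated in a similar way, DDIT3 (CHOP) is a transcription factor that ATF4 induces, and NUPR1 is a small stress-induced chromatin protein. TRIB3 is a pseudokinase that binds ATF4 and limits it. CHAC1 degrades glutathione, ASNS makes asparagine and PSAT1 catalyses a step of serine synthesis. SLC7A11 is the cystine importer xCT, and SLC7A5 is the light chain of the LAT1 transporter of large neutral amino acids. Transcript levels report neither eIF2alpha phosphorylation nor ATF4 protein, which were not analysed here.

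ATF4 and its C/EBP partners bind a composite sequence, the C/EBP-ATF response element. The letters TGATGNAA, which stand for it here, were searched on both strands of RefSeq promoters (GRCm38.p6, 250 bases before to 50 bases after each start). They occurred in 1304 of 32851 promoters (3.97%) and in the promoters of 5 of the 9 members that have an entry. The windows around these matches are shown because they hold the sequence through which ATF4 is known to act, with the match in capitals and each window read 5′ to 3′ on the gene's own strand. The Chac1 window is chr2:119351009-119351096 on the plus strand, outside annotated genes. The Trib3 window is chr2:152344032-152344086 and the Slc7a11 window chr3:50443613-50443719, both on the minus strand and almost wholly upstream of the annotated gene. The Asns window is chr6:7693214-7693243 and the Nupr1 window chr7:126625562-126625591, both on the minus strand and exonic in the GENCODE M21 annotation of GRCm38.
Chac1: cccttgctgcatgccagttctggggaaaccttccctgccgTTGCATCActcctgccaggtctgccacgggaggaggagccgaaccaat
Trib3: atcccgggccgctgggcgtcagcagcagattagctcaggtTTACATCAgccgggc
Slc7a11: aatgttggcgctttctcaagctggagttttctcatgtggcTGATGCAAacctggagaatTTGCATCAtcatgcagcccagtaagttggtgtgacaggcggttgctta
Asns: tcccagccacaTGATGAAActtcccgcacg
Nupr1: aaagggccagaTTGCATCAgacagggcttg
The matches lie at -193 from the start in Chac1, +15 in Trib3, -66 and -47 in Slc7a11, -23 in Asns and -110 in Nupr1. Slc7a11 holds 2 matches on opposite strands in 1 window. Atf4, Atf5, Ddit3 and Psat1 held no match in this stretch, which says only that these letters are not in it, and Slc7a5 was not matched to an entry. The cAMP response element TGACGTCA occurred in 1.79% of promoters and in 0 members. The CTCF core motif, of 12 letters and searched on both strands, occurred in 2.43% of promoters and in 1 member, Psat1, at -76.

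Positions follow the GENCODE M21 annotation of GRCm38. Atf4 is at chr15:80255184-80257541, Atf5 at chr7:44812256-44816658, Ddit3 at chr10:127290774-127296288 and Nupr1 at chr7:126623249-126630861. Trib3 is at chr2:152337422-152344032 and Chac1 at chr2:119351229-119354381. Asns is at chr6:7675169-7693254, Psat1 at chr19:15904678-15947337, Slc7a11 at chr3:49892526-50443614 and Slc7a5 at chr8:121881150-121907694. Exons of Ddit3 overlap Gm4189 and Mars on the opposite strand and a second gene model named Ddit3, and exons of Atf5 overlap Nup62 and Il4i1 on the opposite strand. Whether the counting used strand is not given in the sources used here, so the values of Ddit3 and Atf5 are uncertain to that extent.

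Library totals of the normalised counts lay between 15364584 and 19642332, and sequencing depth is unknown. Between the libraries of a group, r across genes (log2 values) was 0.9820 to 0.9921. All 7 embryonic stem cell markers on the list (among them Pou5f1, Nanog and Sox2) were listed in every table. Their summed level lay between 75480.1 and 95279.9 in 26 libraries. It lay between 57927.9 and 58503.5 with the Chd4 hairpin and between 38727.4 and 46752.9 in the serum groups. The genes differed in direction between untreated serum and serum-free CTCF AID cells, normalised separately. Means were lower in serum for Tfcp2l1 (3988 against 21014), Nanog (5195 against 15722), Esrrb (8142 against 12447) and Klf4 (1797 against 2467). They were higher for Pou5f1 (13928 against 12391), Sox2 (5918 against 4931) and Zfp42 (7658 against 6547). Chd4 measured 9923 and 9526 with the control hairpin and 3379 and 3729 with the Chd4 hairpin. Ctcf measured 4134 and 4332 in the overexpression control, 9275 and 9481 with wild-type CTCF and 9589 and 9712 with mutated CTCF. The degrons act on protein, so mRNA does not check the degradation itself. These are bulk libraries, in which fewer cells of a type and less RNA per cell cannot be told apart.

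Per kilobase of merged exon, the untreated CTCF AID cells held most Asns (5343 ± 59.5 normalised counts per kb, mean ± SD, n = 2), followed by Atf4 at 1673 ± 70.9 and Psat1 at 1606 ± 10.5. Slc7a5 followed at 812.1 ± 9.1, Atf5 at 357.9 ± 31.0, Nupr1 at 253.9 ± 4.6 and Trib3 at 252.7 ± 0.3. Chac1 (79.6), Ddit3 (44.4) and Slc7a11 (1.13) were lowest on this scale. Atf4 and Psat1 differed by less than the SD of Atf4, and Nupr1 and Trib3 by less than that of Nupr1, so neither pair can be ordered. In the untreated serum groups the order at the top was different, with Atf4 first at 2061, then Psat1 at 1931 and Asns at 1557 per kb.

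After 12 h of IAA in CTCF AID cells, both treated libraries lay above both untreated libraries for all 10 genes. After 24 h both libraries lay below both 12 h libraries for all 10. Across all genes tested, 31.0% were higher and 30.7% lower without overlap at 12 h against 0 h, and 22.7% were higher and 21.8% lower at 24 h against 12 h. Because the genes were listed with this time course known, these counts are a description and nothing is read from them. The plot of the members over the auxin time course shows every library.

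**Figure D1:**
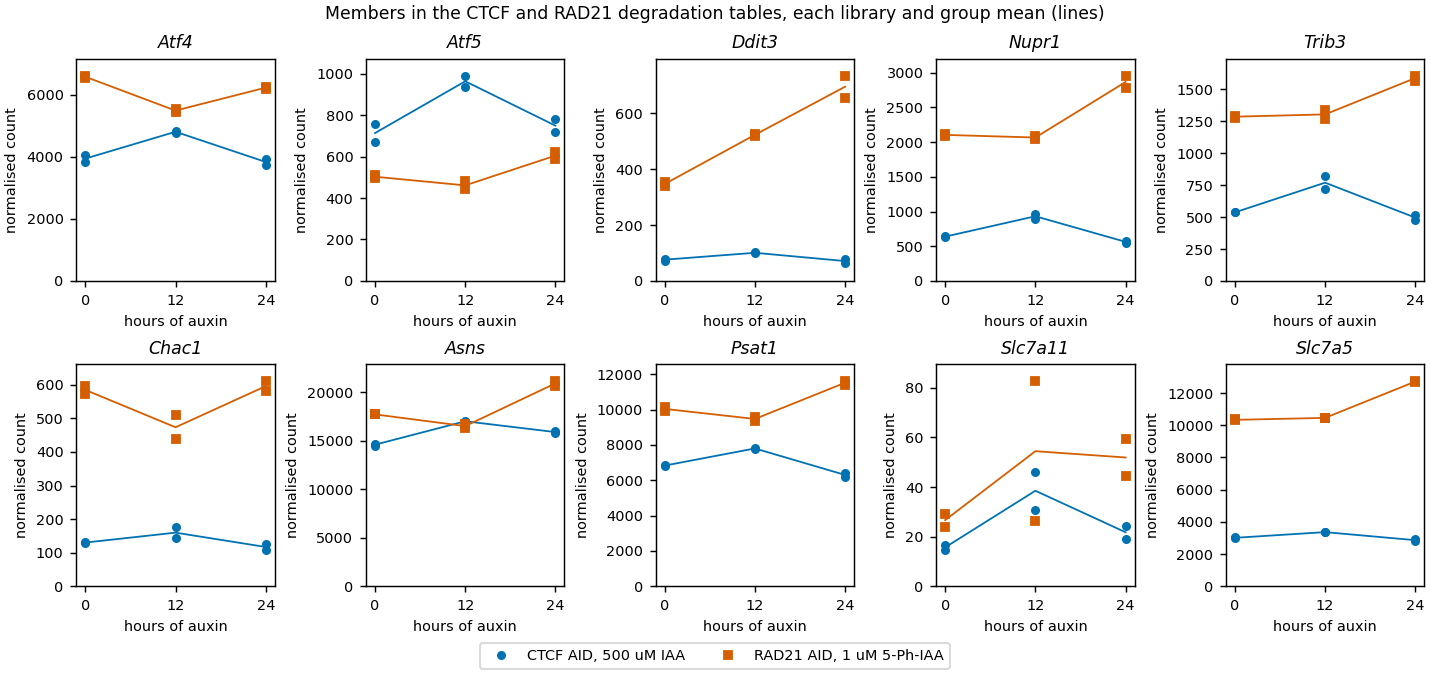
Normalised counts of the 10 genes (vertical axes, from 0) against hours of auxin (0, 12 and 24) in CTCF AID cells given 500 uM IAA (circles) and RAD21 AID cells given 1 uM 5-Ph-IAA (squares), with 1 point for each library and lines through group means. In CTCF AID cells each gene is highest at 12 h, whereas in RAD21 AID cells Ddit3 measures 355 and 339 at 0 h and 655 and 735 at 24 h. The tables were normalised separately, so levels of the 2 cell lines are not compared.

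Among the transcription factors, Atf4 measured 4063 and 3827 at 0 h, 4837 and 4785 at 12 h and 3932 and 3740.0 at 24 h. Atf5 measured 669 and 757, then 935 and 991, then 718 and 780.0. For both genes the 12 h libraries stand above the others while those at 0 h and 24 h overlap. Ddit3 measured 79.8 and 72.4 at 0 h, 99.4 and 102 at 12 h and 63.4 and 78.7 at 24 h, again with 0 h and 24 h overlapping. Nupr1 measured 630.1 and 646, then 968 and 896, then 576 and 549.5. The Nupr1 libraries at 24 h lie below those at 0 h, so the gene passed its starting level on the way down.

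The feedback regulator Trib3 measured 538 and 537 at 0 h, 717 and 823 at 12 h and 477 and 515 at 24 h. The glutathione-degrading Chac1 measured 129.6 and 131, then 176 and 143, then 126 and 109. Both genes ended below their untreated level without overlap, and the 2 Chac1 libraries at 12 h lie far apart. Asparagine synthetase, Asns, was the exception among the abundant genes, with 14728 and 14498 at 0 h, 17093 and 16966 at 12 h and 15817 and 16007 at 24 h. Psat1 measured 6801 and 6864, then 7821 and 7783, then 6180.1 and 6425. Asns thus stayed above its untreated level at 24 h while Psat1 lay below it.

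Of the transporters, Slc7a11 measured only 14.7 and 16.7 at 0 h, 30.9 and 46.2 at 12 h and 19.1 and 24.5 at 24 h. Slc7a5 measured 3035 and 2987, then 3370.4 and 3359.9, then 2787 and 2943. The low-level cystine importer has the widest relative span of the 10 genes and the abundant LAT1 chain the narrowest at 12 h.

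As folds of the mean log2(value + 1), a scale that understates the change of low genes, the 12 h levels were 2.33 times the 0 h level for Slc7a11, 1.46 for Nupr1, 1.43 for Trib3, 1.35 for Atf5 and 1.32 for Ddit3. The others were 1.22 for Atf4 and Chac1, 1.17 for Asns, 1.14 for Psat1 and 1.12 for Slc7a5. The median log2 difference of the 10 genes at 12 h was 0.34, beside 0.00 over all genes tested. At 24 h against 0 h the median was -0.09, with Asns and Slc7a11 higher without overlap, 5 genes lower without overlap (Nupr1, Trib3, Chac1, Psat1 and Slc7a5) and 3 overlapping. The shares over all genes were 31.8% higher and 31.3% lower. At 24 h against 12 h the median was -0.40.

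Other genes of the pathway are given as counts from lists, with no test in this time course. At 12 h, 12 of 13 cytosolic tRNA synthetase and tRNA export genes were higher without overlap and 0 lower (median log2 difference 0.23). Of the 9 other amino acid transporters 8 were higher and 0 lower (median 0.40), and of 8 antioxidant genes of the NRF2 pathway 5 were higher and 0 lower (median 0.28). Amino acid and one-carbon synthesis had 4 of 11 genes higher and 2 lower (median 0.06), and the 10 eIF2alpha kinase, phosphatase and eIF2B genes had 4 higher and 2 lower (median 0.02). Among the latter the eIF2B gene Eif2b5 had a mean of 4309 at 0 h, 7355 at 12 h and 7817 at 24 h. The kinase gene Eif2ak4 had 773.9, 618.8 and 590.2. The endoplasmic reticulum chaperones and other arms of the unfolded protein response had 1 of 15 higher and 6 lower (median -0.06). At 24 h against 12 h, 11 of 13 synthetase genes, 8 of 9 transporters and 10 of 11 synthesis genes were lower without overlap and 0 of each were higher. The NRF2 pathway list at 24 h still had 6 of 8 genes higher than at 0 h and 0 lower.

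In RAD21 AID cells 3 of the 10 genes had changed at 12 h of 5-Ph-IAA, and at 24 h 6 of the 10 had risen. The test was limma on log2(value + 1), with Benjamini-Hochberg adjustment over all 13738 genes of the table and a threshold of 0.05. At 12 h 1 gene rose and 2 fell, where 6.66% of all genes tested rose and 6.35% fell. At 24 h 6 rose and 0 fell, where 6.54% rose and 7.16% fell. Both times were set against the same 0 h libraries. These tests use the 12 h and 24 h libraries whose difference is left untested. Their p-values may therefore not be independent of the choice of genes. The genes and lists were chosen with results of these data in view, so their counts beside these shares, here and below, are a description. The median log2 difference of the 10 genes was -0.06 at 12 h and 0.28 at 24 h, beside 0.00 over all genes at both times.

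Ddit3 measured 355 and 339 at 0 h, 527 and 518 at 12 h and 655 and 735 at 24 h, so that no 2 times overlap. It was 1.51-fold higher at 12 h (log2 difference 0.59, SE 0.09, adjusted p = 0.0100) and 2.00-fold higher at 24 h (1.00, SE 0.09, adjusted p = 0.00129). Atf4 measured 6544 and 6624, then 5456 and 5530.0, then 6202 and 6266. Its 12 h libraries are the lowest, and Atf4 fell by 0.26 on the log2 scale at 12 h (SE 0.03, adjusted p = 0.00289) and differed by -0.08 at 24 h (adjusted p = 0.107). Nupr1 measured 2121 and 2087, then 2082 and 2049.8, then 2774 and 2959. Its 12 h libraries lie just below those at 0 h (log2 difference -0.03, SE 0.05, adjusted p = 0.757) and its 24 h libraries above both, a rise of 1.36-fold (0.45, SE 0.05, adjusted p = 0.00224). Atf5 measured 511 and 495, then 442 and 480.1, then 589 and 620.0, and its difference at 24 h did not pass the test (0.27, SE 0.09, adjusted p = 0.0903).

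Trib3 measured 1295 and 1278 at 0 h, 1271 and 1338 at 12 h and 1609 and 1569 at 24 h, and rose 1.23-fold at 24 h (log2 difference 0.30, SE 0.06, adjusted p = 0.0153). Chac1 measured 598 and 572, then 509 and 438, then 612 and 581. Its dip at 12 h did not pass the test (-0.31, SE 0.10, adjusted p = 0.0867), and at 24 h its libraries overlap those at 0 h.

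Asns measured 17735 and 17743, then 16321 and 16739.9, then 20688 and 21192. It fell by 0.10 on the log2 scale at 12 h (SE 0.02, adjusted p = 0.0255) and was 0.24 higher at 24 h (SE 0.02, adjusted p = 0.00114). Psat1 measured 9939.9 and 10140.4, then 9380.0 and 9563, then 11625 and 11420.2, a rise of 0.20 at 24 h (SE 0.02, adjusted p = 0.00397). Slc7a5 measured 10306 and 10365, then 10437 and 10479, then 12676 and 12753, a rise of 0.30 at 24 h (SE 0.02, adjusted p = 5.66e-04). The 24 h libraries of these 3 genes lie above all others. Slc7a11 measured 24.1 and 29.3, then 26.1 and 82.8, then 44.6 and 59.2, and its 2 libraries at 12 h differ widely. Neither of its differences passed the test (0.79, SE 0.51, adjusted p = 0.347 at 12 h and 0.93, SE 0.51, adjusted p = 0.273 at 24 h).

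Between 12 h and 24 h, described without a test, 9 of the 10 genes were higher without overlap, all but Slc7a11, where 30.1% of all genes were higher and 30.0% lower. The median log2 difference was 0.31. With 1 library left out in turn, the 24 h rises of Ddit3, Nupr1, Asns, Psat1 and Slc7a5 and the 12 h fall of Atf4 kept an adjusted p under 0.05. The rise of Trib3 at 24 h lost it without any of the 4 libraries (adjusted p 0.0548 to 0.0773), the fall of Asns at 12 h likewise (0.0592 to 0.118), and the rise of Ddit3 at 12 h without 0 h replicate 2, 12 h replicate 1 or 12 h replicate 2 (0.0566 to 0.0607).

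The surrounding pathway at 24 h of 5-Ph-IAA had rises and no falls in 3 lists. Amino acid and one-carbon synthesis rose in 7 of 11 genes (median log2 difference 0.25), with Gpt2, an alanine aminotransferase, at 0.51 (SE 0.03, adjusted p = 1.34e-04) and Cth, which makes cysteine from cystathionine, at 0.46 (SE 0.04, adjusted p = 7.27e-04). The tRNA synthetase list rose in 8 of 13 (median 0.20) and the other amino acid transporters in 7 of 9 (median 0.31). The endoplasmic reticulum chaperone list had 3 of 15 higher and 3 lower (median -0.05): Dnajc3 rose by 0.50 (adjusted p = 0.0150), whereas Hspa5, which encodes BiP, fell by 0.24 (adjusted p = 0.00377) and Xbp1 fell by 0.40 (adjusted p = 0.0135). At 12 h the synthesis list had 0 of 11 higher and 2 lower, the synthetases 2 higher and 4 lower, the transporters 2 higher and 2 lower, and the NRF2 pathway 3 of 8 higher, among them Nqo1 at 0.45 (adjusted p = 0.00169) and Gclc at 0.44 (adjusted p = 0.0141). The summed primitive endoderm markers (4 of 5 listed, without Sox7) were 67.4 to 88.1 at 0 h, 120.6 to 138.1 at 12 h and 95.9 to 111.5 at 24 h. The trophoblast list (1 of 4, Tfap2c alone, without Cdx2, Elf5 and Hand1) was at 646.9 to 727.7, 483.3 to 514.0 and 330.5 to 382.7 at the same times. The fibroblast list (2 of 4, without Col1a2 and Col3a1) was at 34.6 in both libraries, 44.6 to 54.5 and 66.5 to 110.9. Within it Thy1 had means of 16.8, 26.15 and 64.5 at these times, and Col1a1 17.8, 23.4 and 24.2. The part of all these markers in the results was not tested.

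**Figure D2:**
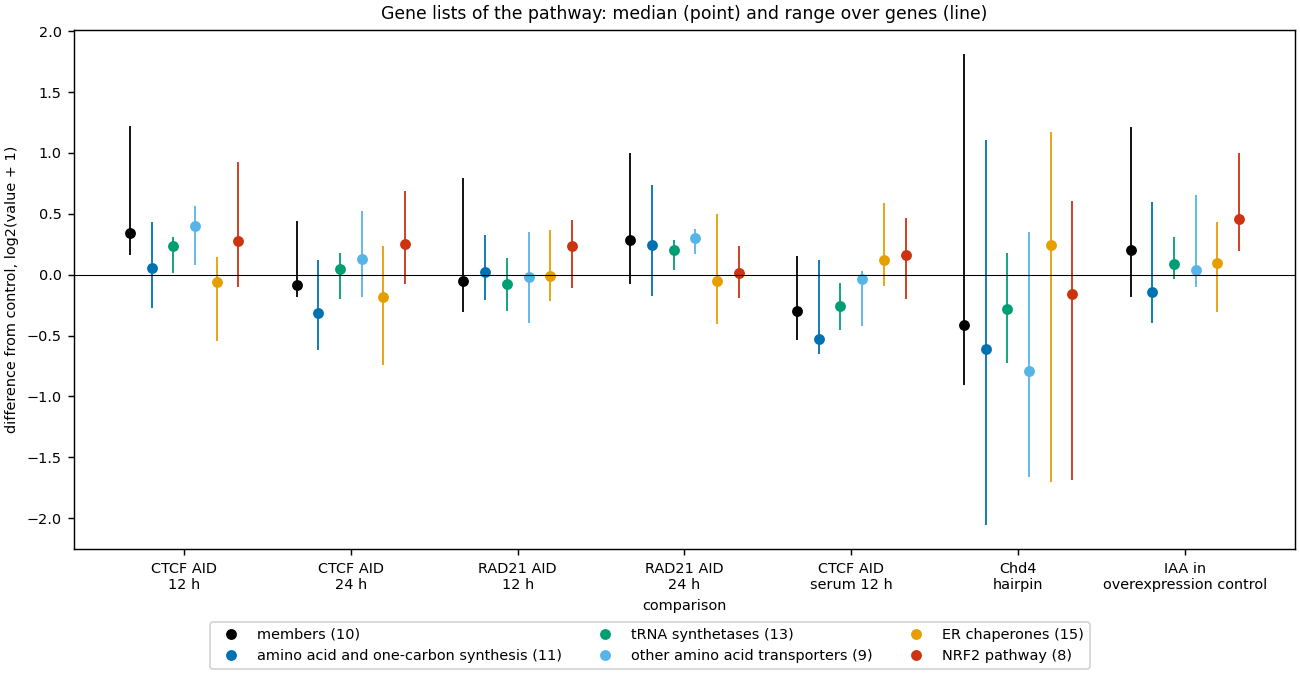
Median (points) and range over genes (lines) of the difference from control on the log2(value + 1) scale, for the 10 members and 5 lists of related genes, with the number of genes in each list in the legend, in 7 comparisons along the horizontal axis. The medians of the members, synthetases and transporters lie above 0 at 12 h in CTCF AID cells and at 24 h in RAD21 AID cells, and those of the members, synthesis genes and synthetases lie below 0 in serum and with the Chd4 hairpin.

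In the CTCF AID cells labelled as grown in serum, 5 of the 10 genes fell after 12 h of IAA and 0 rose. The limma test covered 14494 genes, of which 9.25% fell and 7.73% rose. Asns measured 4276 and 4242 at 0 h and 2887 and 2975 at 12 h, a fall of 1.45-fold (log2 difference -0.54, SE 0.03, adjusted p = 1.04e-04). Nupr1 measured 345 and 368 and then 264 and 253 (-0.47, SE 0.09, adjusted p = 0.0169). Atf5 measured 328 and 318 and then 249.9 and 238 (-0.40, SE 0.10, adjusted p = 0.0283). These 3 genes are higher at 12 h in the serum-free time course and lower here, in every library of each. They were listed with the serum-free values known. The tables were normalised separately, and the difference was not tested.

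Psat1 measured 8330.2 and 8096 at 0 h and 6432 and 6346 at 12 h (log2 difference -0.36, SE 0.03, adjusted p = 1.78e-04). Slc7a5 measured 5533 and 5462 and then 4221 and 4419 (-0.35, SE 0.03, adjusted p = 5.59e-04). Ddit3 also lay lower in both treated libraries, 148 and 171 against 137 and 132, without passing the test (-0.24, SE 0.14, adjusted p = 0.273). Libraries at 0 h and 12 h overlapped for the other 4 genes: Atf4 measured 4759 and 4960.4 and then 4901 and 4780.1, Trib3 607 and 631 and then 682 and 603, Chac1 279 and 282 and then 295 and 275, and Slc7a11 44.6 and 50.9 and then 60.5 and 46.7. The 95% interval of the Atf4 difference runs from -0.08 to 0.07. The median over the 10 genes was -0.30, beside 0.00 over all genes. The calls of Atf5 (without any of the 4 libraries, adjusted p 0.0638 to 0.148) and Nupr1 (without 0 h replicate 2 or either 12 h library, 0.0632 to 0.109) were lost on leaving out 1 library, and those of Asns, Psat1 and Slc7a5 were kept.

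Among related genes in serum, amino acid and one-carbon synthesis fell in 9 of 11 and rose in 0 (median log2 difference -0.52), with the mitochondrial folate enzymes Mthfd2 at -0.63 (SE 0.04, adjusted p = 1.46e-04) and Aldh1l2 at -0.65 (SE 0.15, adjusted p = 0.0250). The tRNA synthetase list fell in 10 of 13 and rose in 0 (median -0.26). The other transporters fell in 3 of 9 (median -0.04). The chaperone list moved the other way, with 7 of 15 higher and 0 lower (median 0.12), led by Creld2 at 0.59 (SE 0.07, adjusted p = 0.00223). The eIF2alpha list had 3 of 10 higher, with the phosphatase subunit Ppp1r15a (GADD34) at 0.36 (adjusted p = 0.00980). The summed stem cell markers (7 of 7 listed) were 46498.5 to 46752.9 at 0 h and 38727.4 to 39603.9 at 12 h, and primitive endoderm markers (4 of 5, without Sox17) 126.5 to 132.0 and 165.9 to 171.5. Mesoderm and neural markers (6 of 6) were 788.9 to 810.2 at 0 h and 892.0 to 917.3 at 12 h, and fibroblast markers (4 of 4) 618.2 to 654.7 and 674.7 to 702.2. Some genes went against the sums of their lists. The neural gene Sox1 had a mean of 154.9 at 0 h and 134.6 at 12 h, whereas T had 24.5 and 80.7. In the fibroblast list Thy1 had 148.4 and 100.1, whereas Col1a1 had 411.7 and 487.3. In the primitive endoderm list Pdgfra had 39.98 and 31.6, whereas Gata4 had 49.98 and 90.04. The part of these markers in the results was not tested.

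With the hairpin against Chd4, 3 of the 10 genes rose and 6 fell. Those that rose were the stress transcription factors Atf5 and Ddit3 and the cystine importer Slc7a11, and those that fell included the stress regulators Nupr1, Trib3 and Atf4. In the limma test 67.4% of 15499 genes passed the threshold, 33.5% higher and 33.8% lower, and 29.8% of all genes differed at least 2-fold, so a call here is common among all genes. Atf5 measured 374 and 356 with the control hairpin and 1286 and 1285 with the Chd4 hairpin, 3.52-fold higher (log2 difference 1.81, SE 0.07, adjusted p = 4.99e-06). Ddit3 measured 127 and 101 and 286 and 293, 2.55-fold higher (1.35, SE 0.16, adjusted p = 2.94e-04). Slc7a11 measured 31.3 and 31.9 and 68 and 71.7, 2.17-fold higher (1.12, SE 0.23, adjusted p = 0.00406). The rise of Atf5 is the largest of any member in any tested comparison.

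Psat1 measured 6800.5 and 6908 with the control hairpin and 3539.8 and 3782 with the Chd4 hairpin, 1.87-fold lower (log2 difference -0.91, SE 0.05, adjusted p = 1.23e-05). Nupr1 measured 558 and 559.9 and 327 and 344, 1.66-fold lower (-0.74, SE 0.09, adjusted p = 3.33e-04). Nupr1 and Ddit3, both stress-induced regulators, thus moved in opposite directions. Asns measured 12854 and 12713 and 8806 and 9421 (-0.49, SE 0.05, adjusted p = 1.17e-04). Slc7a5 measured 5986 and 6281 and 4380.1 and 4574 (-0.45, SE 0.05, adjusted p = 1.99e-04). Of the 2 amino acid carriers, Slc7a5 fell and Slc7a11 rose. Trib3 measured 360.2 and 385 and 287 and 259 (-0.45, SE 0.11, adjusted p = 0.00897). Atf4 itself measured 4599 and 4737 and 3591 and 3611 (-0.37, SE 0.04, adjusted p = 3.24e-04). Chac1 measured 125 and 90.7 and 91.9 and 104, overlapping (-0.12, SE 0.21, adjusted p = 0.626, 95% interval -0.63 to 0.38). The median of the 10 was -0.41, beside 0.01 over all genes. Slc7a11 lost its call without either Chd4 hairpin library (adjusted p 0.0506 and 0.0576) and Trib3 without the second (0.0857); the other 7 calls were kept.

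Of the related lists, amino acid and one-carbon synthesis fell in 7 of 11 genes and rose in 1 (median log2 difference -0.61). Pycr1, of proline synthesis, was at -2.06 (SE 0.20, adjusted p = 1.35e-04) and Psph, of serine synthesis, at -1.69 (SE 0.11, adjusted p = 2.25e-05), while Cth rose by 1.11 (SE 0.07, adjusted p = 2.33e-05). The tRNA synthetases had 9 of 13 lower and 1 higher (median -0.28) and the other transporters 6 of 9 lower and 1 higher (median -0.79). The chaperone list had 8 of 15 higher and 3 lower (median 0.25), from Herpud1 at 1.17 (adjusted p = 1.98e-04) to the oxidase gene Ero1l at -1.70 (adjusted p = 2.16e-06). Atf3, a stress-induced transcription factor of the same family, rose by 2.04 (SE 0.24, adjusted p = 3.33e-04). Markers of other cells moved too. The summed primitive endoderm markers (5 of 5 listed) went from 99.8 to 117.3 up to 322.8 to 351.6, mesoderm and neural markers (6 of 6) from 1870.8 to 1983.5 up to 2929.3 to 2993.7, and fibroblast markers (3 of 4, without Col3a1) from 238.9 to 316.0 up to 559.1 to 627.7. The primitive endoderm genes differed in direction. Pdgfra had a mean of 36.2 with the control hairpin and 214.1 with the Chd4 hairpin, and Gata6 13.4 and 89.3, whereas Gata4 had 41.5 and 8.63, and Sox17 16.9 and 3.68. The trophoblast list (1 of 4, Tfap2c alone, without Cdx2, Elf5 and Hand1) went from 1483.0 to 1576.9 down to 840.0 to 857.2. Stem cell markers (7 of 7) went from 75585.8 to 76429.3 down to 57927.9 to 58503.5. Against the sums of their lists, the neural gene Sox1 had a mean of 65.9 with the control hairpin and 26.5 with the Chd4 hairpin, and the stem cell gene Esrrb 11441 and 11715. Their part in the results was not tested.

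The overexpression table repeats 12 h of IAA in CTCF AID cells in other libraries. In 4 of its 12 libraries the labels contradict each other. Both mutated CTCF libraries whose titles lack IAA have a treatment label of 12 h of IAA, and both wild-type CTCF libraries whose titles include IAA have a treatment label of none. Groups here follow the titles, and results that use these libraries rest on that reading. By title the sulfiredoxin gene Srxn1, picked after seeing the data, had means of 1012 without and 2454 with IAA in wild-type CTCF cells. It had 1151 and 2833 with mutated CTCF, beside 1247 and 2497 in the control. The limma test covered 13938 genes.

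In the overexpression control, whose labels do not disagree, IAA raised 7 of the 10 genes and lowered 2, where 12.8% of all genes rose and 12.5% fell. Trib3 measured 582 and 596 without IAA and 943 and 904 with it, 1.57-fold higher (log2 difference 0.65, SE 0.07, adjusted p = 5.33e-05). Atf5 measured 623 and 602 and then 913 and 861, 1.45-fold higher (0.53, SE 0.08, adjusted p = 7.28e-04). Slc7a11 measured 13.4 and 22.7 and then 43.3 and 40.5, 2.32-fold higher (1.22, SE 0.34, adjusted p = 0.0224). Chac1 measured 153 and 155 and then 196 and 208 (0.39, SE 0.12, adjusted p = 0.0302). For these 4 genes both libraries with IAA lie above both without it.

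Nupr1 measured 692 and 669.7 without IAA and 789.9 and 841 with it (log2 difference 0.26, SE 0.06, adjusted p = 0.0111). Atf4 measured 5459.8 and 5370.2 and then 6095 and 5952 (0.15, SE 0.04, adjusted p = 0.0124). Psat1 measured 7648 and 7720.2 and then 8223 and 8280.2 (0.10, SE 0.02, adjusted p = 0.00927). These rises are smaller, and the groups of each do not overlap. Slc7a5 measured 5098 and 4746 and then 4358 and 4332 and fell by 0.18 on the log2 scale (SE 0.04, adjusted p = 0.00941). Asns measured 16967 and 16847 and then 15796 and 16038 and fell by 0.09 (SE 0.02, adjusted p = 0.00946). Both genes were higher at 12 h in the first time course, known when they were listed, and are lower here. Ddit3 measured 82.3 and 74.2 and then 77.2 and 80.5, overlapping (0.01, SE 0.17, adjusted p = 0.968, 95% interval -0.36 to 0.39).

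The median over the 10 genes was 0.21, beside 0.00 over all genes. The calls of Trib3 and Atf5 were kept with each library left out, and the other 7 were lost in at least 1 such fit (adjusted p 0.0511 to 0.150). Chac1 lost it without any of the 4 libraries, Slc7a11 without control replicate 1 or either IAA library, Atf4 without control replicate 2 or IAA replicate 1, Nupr1 without control replicate 2 or IAA replicate 2, Slc7a5 without control replicate 1 or IAA replicate 2, Asns without IAA replicate 1 and Psat1 without IAA replicate 2. With only the 4 control libraries in the fit, 4 genes passed (Trib3, Atf5, Atf4 and Slc7a5).

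**Figure D3:**
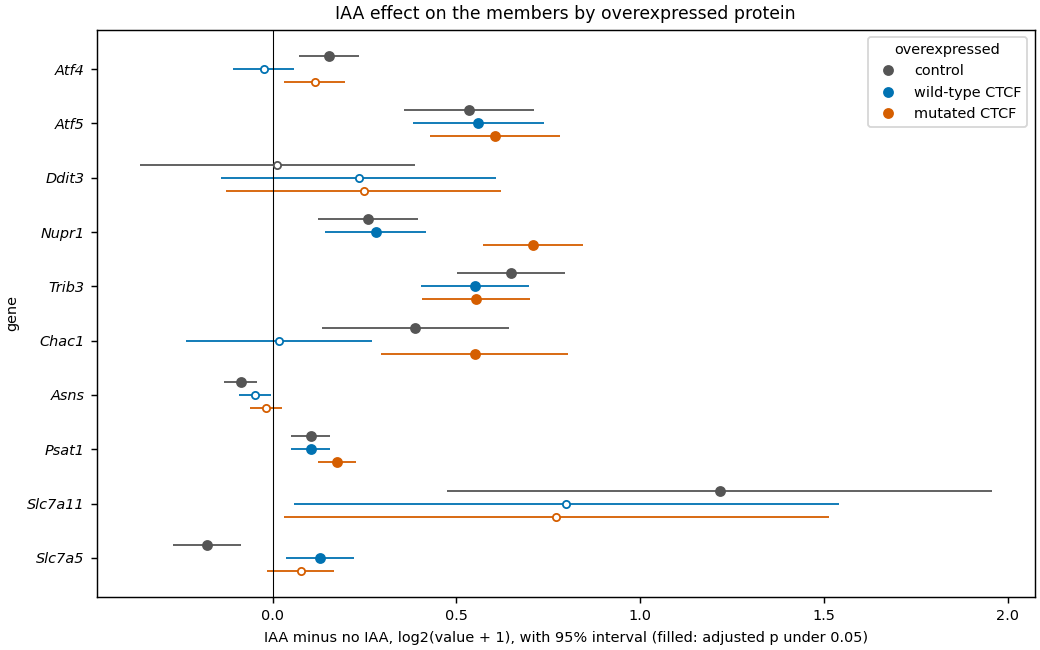
Difference between IAA and no IAA on the log2(value + 1) scale (horizontal axis) for each gene, with its 95% interval from limma, in cells overexpressing a control, wild-type CTCF or mutated CTCF. Filled points have an adjusted p under 0.05: Atf5, Nupr1, Trib3 and Psat1 are filled and above 0 in all 3 backgrounds, and Slc7a5 is below 0 in the control and above 0 with wild-type CTCF. For 4 of the 12 libraries the treatment label disagrees with the title used here.

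With wild-type CTCF overexpressed, IAA raised 5 of the 10 genes and lowered 0, where 11.1% of all genes rose and 10.3% fell. Atf5 measured 556 and 475 without IAA and 735 and 782 with it (log2 difference 0.56, SE 0.08, adjusted p = 7.77e-04). Trib3 measured 614 and 588 and then 841 and 919 (0.55, SE 0.07, adjusted p = 2.87e-04). Nupr1 measured 619 and 609 and then 745 and 747 (0.28, SE 0.06, adjusted p = 0.00921). The other calls were small, Slc7a5 at 0.13 (SE 0.04, adjusted p = 0.0487) and Psat1 at 0.10 (SE 0.02, adjusted p = 0.0107). Chac1, raised by IAA in the control, measured 198 and 201 and then 199.6 and 204 (0.02, SE 0.12, adjusted p = 0.938). Atf5 and Trib3 kept their calls with each library left out. Nupr1 lost it without wild-type replicate 2 or wild-type IAA replicate 2 (adjusted p 0.0506 and 0.0522), and Psat1 (0.0504 to 0.0655) and Slc7a5 (0.153 to 0.275) without either of these or wild-type IAA replicate 1. Slc7a5 also lost it with only the compared groups in the fit (0.0760).

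With mutated CTCF overexpressed, IAA raised 5 of the 10 genes and lowered 0, where 8.31% of all genes rose and 7.92% fell. Nupr1 measured 409.6 and 411 without IAA and 664 and 679 with it, 1.63-fold higher (log2 difference 0.71, SE 0.06, adjusted p = 4.86e-05). Atf5 measured 549 and 555 and then 827 and 854 (0.61, SE 0.08, adjusted p = 6.36e-04). Trib3 measured 504 and 518 and then 741 and 759.6 (0.55, SE 0.07, adjusted p = 3.44e-04). Among the 5 called genes Nupr1 had the largest difference. Chac1 measured 104 and 95.4 and then 149 and 143 (0.55, SE 0.12, adjusted p = 0.00822), and Psat1 rose by 0.17 (SE 0.02, adjusted p = 7.24e-04). The call of Chac1 was lost without mutated CTCF replicate 2 or mutated CTCF IAA replicate 1 (adjusted p 0.0524 and 0.0570), and with only the compared groups in the fit (0.0725), and the other 4 were kept with each library left out. Slc7a11, at 18.3 and 21.9 and then 28.8 and 42.2, did not pass (0.77, SE 0.34, adjusted p = 0.151).

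Whether the IAA effect differed between backgrounds was tested as an interaction with the same control libraries, so the 2 interactions are not independent of each other. For wild-type CTCF 1 of the 10 genes passed, Slc7a5, whose IAA effect was 0.31 higher on the log2 scale than in the control (SE 0.06, adjusted p = 0.0291), where 1.41% of all genes passed. For mutated CTCF 1 passed, Nupr1, with an effect 0.45 higher (SE 0.09, adjusted p = 0.0293), where 1.64% passed. Without 1 library the first lost its call in 6 fits (adjusted p 0.0851 to 0.104: all but control replicate 2 and wild-type replicate 1) and the second in 7 (0.0690 to 0.115: all but control IAA replicate 2). With only the compared groups in the fit, 0 members passed in either. Of the related lists, Eif2b5 had an IAA effect lower with wild-type CTCF than in the control in the same interaction test (-0.417, SE 0.049, adjusted p = 0.00122). Its means without and with IAA were 5832 and 8285 in the control and 5996 and 6377 with wild-type CTCF. The transporter gene Slc7a3 had a higher effect (0.475, SE 0.081, adjusted p = 0.0165). Both rest on the wild-type CTCF libraries whose labels disagree.

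**Figure D4:**
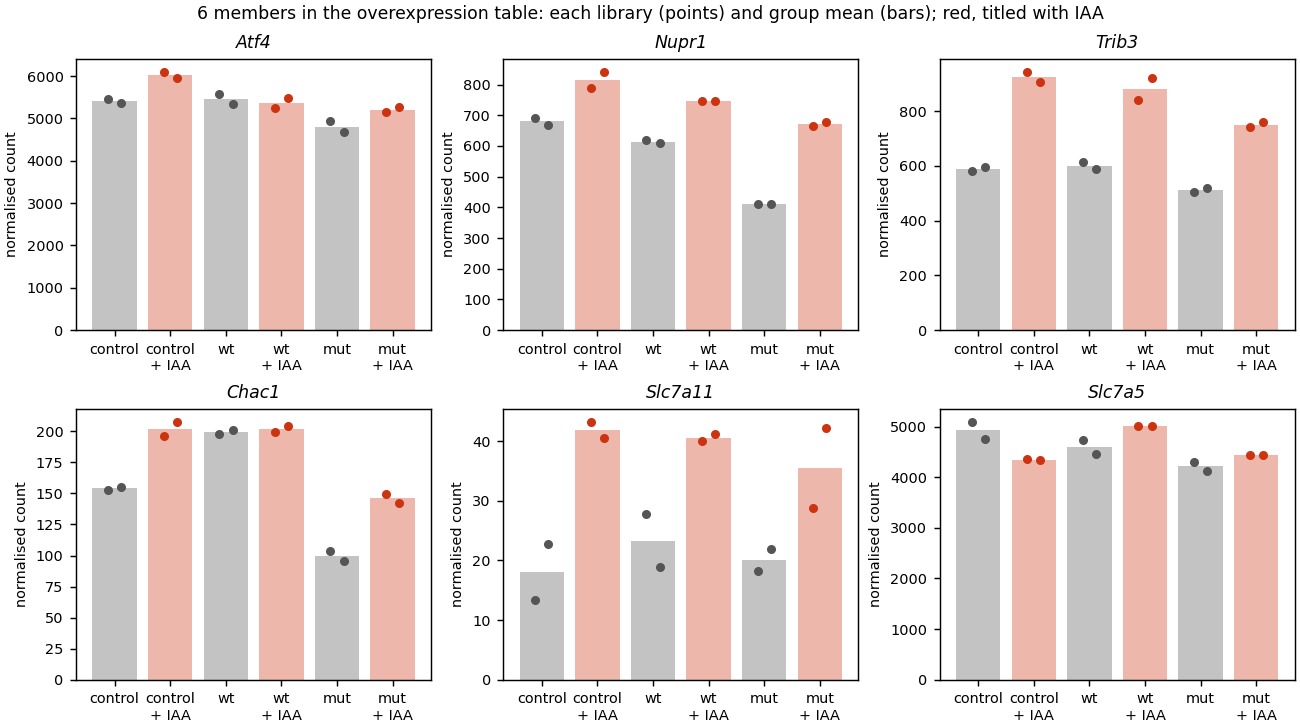
Normalised counts (vertical axes, from 0) of 6 genes in the 6 groups of the overexpression table, with 1 point for each library and bars at the group means of 2 libraries; red marks groups titled with IAA. Nupr1 is lowest with mutated CTCF without IAA (410 and 411), Chac1 is at 198 to 201 with wild-type CTCF without IAA and at 95.4 to 104 with mutated CTCF without IAA, and Slc7a5 is highest in 1 control library at 5098.

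Set against the control without IAA, wild-type CTCF changed 0 of the 10 genes at an adjusted p under 0.05 in limma, where 0.897% of all genes passed, and 5 had an unadjusted p under 0.05 (Atf5, Nupr1, Chac1, Psat1 and Slc7a5), where 12.3% of all genes did. Chac1 had the largest of these differences, 153 and 155 against 198 and 201 (log2 difference 0.37, SE 0.12, adjusted p = 0.220). Mutated CTCF lowered 5 and raised 0, where 2.24% of all genes fell and 3.31% rose. Nupr1 fell 1.66-fold, from 692 and 669.7 to 409.6 and 411 (-0.73, SE 0.06, adjusted p = 1.12e-04). Chac1 fell 1.54-fold, from 153 and 155 to 104 and 95.4 (-0.63, SE 0.12, adjusted p = 0.0108). The falls of Slc7a5 (-0.22, adjusted p = 0.0113), Atf4 (-0.17, adjusted p = 0.0242) and Asns (-0.10, adjusted p = 0.0177) were smaller. Only the Nupr1 call was kept with each library left out: the other 4 were lost without control replicate 1 or mutated CTCF replicate 2, and Atf4, Chac1 and Asns also without control replicate 2 (adjusted p 0.0535 to 0.161). Nupr1 was also the only call, 1 of 10, with only the compared groups in the fit. The mutated CTCF libraries of this comparison are among those whose labels disagree.

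With IAA, wild-type CTCF was set against the control with IAA. Atf4 was lower, 6095 and 5952 against 5254 and 5475 (log2 difference -0.17, SE 0.04, adjusted p = 0.0245), and Slc7a5 higher, 4358 and 4332 against 5018 and 5015 (0.21, SE 0.04, adjusted p = 0.0137), 2 of 10 genes where 6.26% of all genes passed. Both calls were lost without any of the 4 libraries (adjusted p 0.0536 to 0.179). Mutated CTCF with IAA, whose labels do not disagree, had 4 genes lower and 0 higher than the control with IAA, where 2.34% of all genes were lower and 4.16% higher. Atf4 was at -0.21 (SE 0.04, adjusted p = 0.00730), Nupr1 at -0.28 (SE 0.06, adjusted p = 0.0232), Trib3 at -0.30 (SE 0.07, adjusted p = 0.0232) and Chac1 at -0.47 (SE 0.12, adjusted p = 0.0371). Trib3, for one, measured 943 and 904 in the control and 741 and 759.6 with mutated CTCF. The calls of Nupr1, Trib3 and Chac1 were lost without any of the 4 libraries (adjusted p 0.0525 to 0.191), and that of Atf4 without replicate 1 of either group (0.0571 and 0.0607). With the 4 libraries of disagreeing labels left out of the fit, an alternative chosen after seeing the data, Nupr1 (adjusted p = 0.0527) and Chac1 (0.0690) no longer passed.

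The NRF2 pathway list, which holds antioxidant genes, had the largest share of genes higher with IAA among the 8 related lists: 7 of 8 in the control, 8 of 8 with wild-type CTCF and 8 of 8 with mutated CTCF (medians 0.46, 0.54 and 0.51 on the log2 scale, beside 0.00 over all genes in each). The sulfiredoxin gene Srxn1 rose by 1.00 in the control (SE 0.05, adjusted p = 1.62e-07), by 1.28 with wild-type CTCF (adjusted p = 9.68e-08) and by 1.30 with mutated CTCF (adjusted p = 8.06e-08). The quinone reductase gene Nqo1 rose by 0.93 in the control (SE 0.04, adjusted p = 1.40e-07). Slc7a11 is itself a known NRF2 target as well as an ATF4 target. The tRNA synthetases rose in 6 of 13 in the control, 2 of 13 with wild-type CTCF and 5 of 13 with mutated CTCF, with 0 lower in each. Amino acid and one-carbon synthesis was mixed, with 4 of 11 higher and 2 lower in the control, among the latter Mthfd2 at -0.40 (SE 0.05, adjusted p = 1.71e-04). Summed mesoderm and neural markers (5 of 6 listed, without Pax6) were 1026.6 to 1052.6 in the control and 1407.9 to 1445.7 with IAA, and trophoblast markers (2 of 4, without Elf5 and Hand1) 1235.4 to 1333.0 and 1662.8 to 1722.7. Within the mesoderm and neural list Nes had a mean of 740.3 in the control and 1206 with IAA, and Mixl1 7.95 and 23.7, whereas T had 91.2 and 44.3, Eomes 109.7 and 95.5, and Sox1 90.4 and 57.3. In the trophoblast list Tfap2c had a mean of 1267 in the control and 1676 with IAA, and Cdx2 16.95 and 16.93. Primitive endoderm markers (3 of 5, without Sox17 and Sox7) were 36.7 to 60.9 in the control and 94.4 to 109.3 with IAA, 59.6 to 88.3 and 63.2 to 77.1 with wild-type CTCF, and 54.3 to 55.7 and 152.9 to 194.9 with mutated CTCF. Most of the last difference was Pdgfra, with means of 34.3 without and 151.2 with IAA, where Gata4 had 16.4 and 17.7 and Gata6 4.30 and 5.00. In the control Pdgfra had 22.9 and 66.7, Gata4 21.6 and 29.6, and Gata6 4.27 and 5.57. Stem cell markers were 91175.4 to 93255.7 in the control and 92541.6 to 92739.6 with IAA, a sum over genes that differed in direction. Sox2 had a mean of 7354 in the control and 5865 with IAA, Esrrb 15772 and 13686, and Pou5f1 16469 and 14941. Tfcp2l1 had 26449 and 31136, Nanog 13986 and 14600, Klf4 3260 and 3536, and Zfp42 8925 and 8876. The part of these markers in the results was not tested.

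Across the 11 groups that are not the control of their table, each taken as its difference from that control, the members did not follow 1 common profile. Slc7a11 (Pearson r 0.82) and Nupr1 (0.81) lay closest to the mean of the other 9 genes, and Atf5 (0.12) and Ddit3 (0.26) were the least like it. Asns and Slc7a5 had the most similar pair of profiles (r = 0.88), followed by Nupr1 and Trib3 (0.85). Atf5 and Psat1 were the least similar pair (-0.52). Groups of a table share their control libraries and the Chd4 groups hold the widest differences, so these values describe 11 points that are not independent and carry no p.

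**Figure D5:**
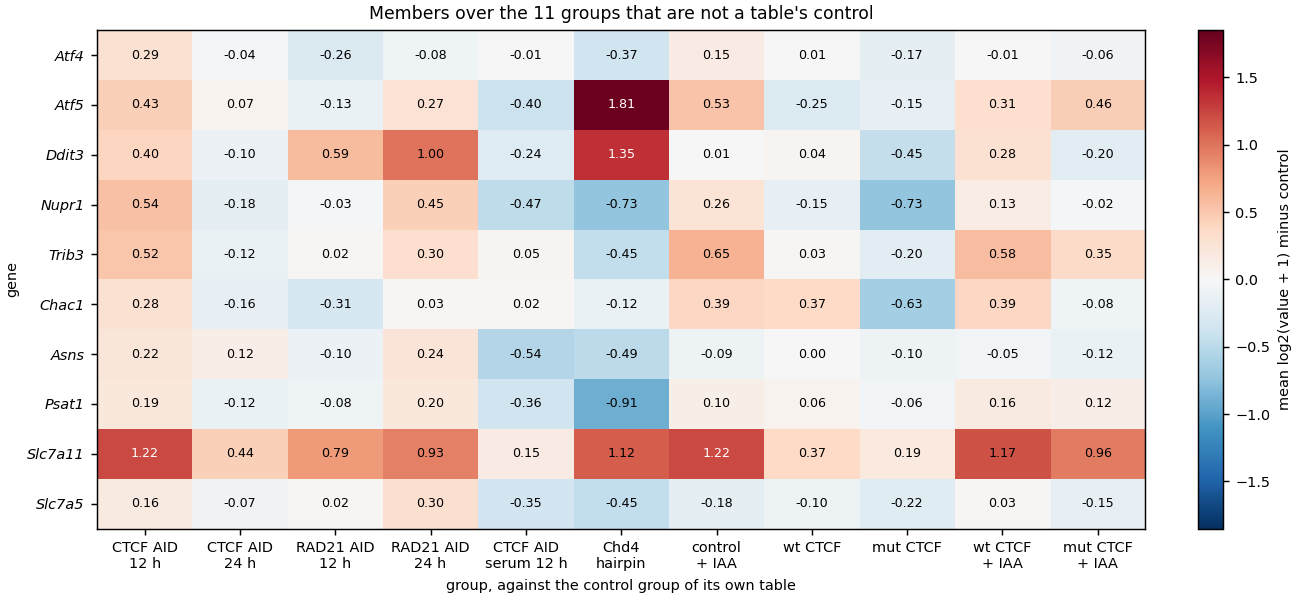
Mean log2(value + 1) minus that of the control group of the same table (colour and printed value) for the 10 genes (rows) in 11 groups (columns). Atf5 is at 1.81 and Psat1 at -0.91 with the Chd4 hairpin, the column is positive for every gene at 12 h in CTCF AID cells, and no other column has 1 sign throughout.

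Among the 8961 genes whose mean reached 100 in every table, the 5 whose profile over these 11 groups was most like the mean of the members were Gpt2 (Pearson r 0.88), Gpatch8 (0.84), Nars (0.83), Slc7a1 (0.82) and Clpx (0.81). Gpt2 makes glutamate and pyruvate from alanine and 2-oxoglutarate, Nars charges tRNA with asparagine, Slc7a1 is a carrier of cationic amino acids and Clpx is a subunit of a mitochondrial protease. Gpt2 differed from its control by 0.44 at 12 h and 0.12 at 24 h in CTCF AID cells, by 0.05 and 0.51 in RAD21 AID cells and by -0.58 in serum. Slc7a1 differed by 0.55, 0.24, 0.06, 0.32 and -0.27 in the same 5 groups.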

How the data were processed

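mRNA sequencing libraries of E14 mouse embryonic stem cells were made with the VAHTS Universal V8 kit, per the labels' protocols. The authors deposited normalised counts per gene, a signal with no value below 0, in 5 tables that were normalised separately. The submitters' processing notes name Trim Galore, Bowtie2, STAR, RSEM and DESeq2 and the build mm10, with no versions or roles. Whole reads could not be recovered, so depth is unknown and no count model was run. The last line of the CTCF table breaks off inside a gene name (1 line) and was dropped. All 32 libraries were mapped by column name and 0 columns were left over.

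Genes with a table mean of at least 10 were tested with limma (version 3.58.1, R 4.3.3; lmFit, contrasts, eBayes with trend) on log2(value + 1). Each table was 1 fit over all its groups, with Benjamini-Hochberg adjustment over all genes tested, at a threshold of 0.05. Differences are first group minus second, and folds are on the log2(value + 1) scale. The fitting code was tested on simulated data. Replicate numbers do not pair the libraries: deviations of same-numbered libraries correlated at -0.063 to 0.102. No library pair of a group held equal values in more than 1.557% of genes.

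The members and the gene lists were chosen with earlier results of these data known. All 10 members are described. From the lists, at most 3 rises and 3 falls per tested comparison could be named, the largest among called genes that reached a mean of 100 in the higher of the groups compared. Eif2b5 and Eif2ak4 in the CTCF AID time course were named outside this rule, after seeing the data. The summed markers are sums of normalised counts. Genes most like the members were ranked by Pearson r over 11 groups, and the 5 highest are named. Alternatives were a pseudocount of 5, no filter, a minimum mean of 100, trimmed-mean scaling, only the compared groups, a replicate block, grouping by the treatment label and each library left out. A fit without the libraries of disagreeing labels was added after seeing the data. Promoter sequences are RefSeq's (GRCm38.p6) and positions are GENCODE M21's (GRCm38), joined by identifier. Figures were drawn with matplotlib 3.10.9 in Python 3.11.15.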

Additional observations from a re-analysis of the deposited data

Results flagged for a closer look

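A difference between backgrounds of the IAA effect passed its own interaction test in limma for 2 genes of the overexpression table. The IAA effect on Slc7a5 was higher with wild-type CTCF than in the control by 0.308 on the log2 scale (adjusted p = 0.0291), and that on Nupr1 was higher with mutated CTCF than in the control by 0.449 (adjusted p = 0.0293). Both use libraries whose title and treatment label disagree, and both calls were lost in most fits that left out 1 library.

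For 6 genes all treated libraries moved one way after 12 h of IAA in serum-free CTCF AID cells and the opposite way in the cells labelled as grown in serum. The serum difference minus the serum-free difference, on the log2 scale, was -1.009 for Nupr1, -0.839 for Atf5, -0.760 for Asns, -0.642 for Ddit3, -0.554 for Psat1 and -0.508 for Slc7a5. These come from tables normalised separately, and the difference was not tested. The genes were listed with the serum-free time course known, so that side of the contrast was set by their choice. Over all genes, 31.0% were higher without overlap at 12 h in serum-free cells and 30.1% lower in serum. The share of genes that met both was not counted. The growth protocol gives serum-free medium for both, so how the culture conditions differed beyond the label is not known here. Untreated cells with and without the serum label also differed in markers. Tfcp2l1 had means of 3988 and 21014, and Col1a1 of 411.7 and 14.0. The part of these markers was not tested.

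For 5 genes the CTCF AID libraries lay above the untreated ones at 12 h and below them at 24 h. Of all genes tested, 31.0% were higher without overlap at 12 h and 31.3% lower at 24 h, each against 0 h. The share that met both was not counted. The 24 h difference minus the 12 h difference was -0.726 for Nupr1, -0.631 for Trib3, -0.441 for Chac1, -0.308 for Psat1 and -0.233 for Slc7a5. Both times share the 0 h libraries, the genes were listed with this time course known, and the difference was not tested.

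For 4 genes of RAD21 AID cells both 12 h libraries lay below the untreated ones and both 24 h libraries above them. Of all genes tested, 29.8% were lower without overlap at 12 h and 29.1% higher at 24 h, each against 0 h. The share that met both was not counted. The 24 h difference minus the 12 h difference was 0.471 for Nupr1, 0.391 for Atf5, 0.341 for Asns and 0.283 for Psat1. At 12 h alone the difference passed the limma test for Asns (-0.102, adjusted p = 0.0255) and not for Nupr1 (-0.026, adjusted p = 0.757), Atf5 (-0.126, adjusted p = 0.371) or Psat1 (-0.084, adjusted p = 0.0672). The 0 h libraries are shared, and the difference was not tested.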

How the results depend on the processing

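Of 1701 values of single genes under alternatives, 1538 kept their direction and their side of the threshold, 114 lost a call, 3 gained one and 46 changed sign, none of the last a called value. A pseudocount of 5 changed no call. With no filter on low values Slc7a5 with wild-type CTCF and IAA missed the threshold (adjusted p = 0.0514). With a minimum mean of 100, which leaves out the low Slc7a11 and Ddit3 where their mean is below it, the median log2 difference of the genes was 0.286 at 12 h and -0.345 at 24 h against 12 h in CTCF AID cells, and 0.335 at 24 h against 12 h in RAD21 AID cells. Trimmed-mean scaling (factors 0.988 to 1.013) turned Chac1 with wild-type CTCF against control with IAA to 0.001 and changed no call.

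Keeping only the compared groups in the fit leaves fewer samples to estimate the spread. Members called were then 4 for IAA in the overexpression control and 1 each for mutated CTCF against control without and with IAA. In each interaction 0 were called. The shares of all genes called in that fit are not given, so these counts are not read as particular to the members. In that fit Slc7a5 lost its call for IAA with wild-type CTCF (adjusted p = 0.0760) and Chac1 for IAA with mutated CTCF (0.0725), leaving 4 members in each. A replicate block gave 2 members in the mutated CTCF interaction, adding Slc7a5 (adjusted p = 0.0374), and dropped Chac1 from mutated CTCF against control with IAA (0.0515), leaving 3; it changed no other call. Grouping by the treatment label gave 2 members for mutated CTCF against control with IAA, with Psat1 at -0.072 and Slc7a5 at -0.007. Nupr1 (-0.634, adjusted p = 0.129) and Trib3 (-0.575, adjusted p = 0.180) no longer passed there. The same grouping gave, in wild-type CTCF against control without IAA, Atf4 at -0.002, Atf5 at 0.028 and Asns at -0.022. Leaving out the libraries of disagreeing labels, added after seeing the data, gave 2 members for mutated CTCF against control with IAA and left the 9 calls of the control and the 0 of wild-type CTCF without IAA. Where no cause is named, the cause was not tested.

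With each library left out in turn, the lone sample of a group being assumed to vary like the others, members called were 1 to 2 for RAD21 AID at 12 h, 3 to 4 in serum, 4 to 6 for IAA in the control, 2 to 5 with wild-type CTCF, 1 to 5 for mutated CTCF without IAA, 0 to 1 for it with IAA, 0 for wild-type CTCF with IAA and 0 to 1 in each interaction. The RAD21 AID median at 24 h against 12 h ran from 0.301 to 0.340. Genes whose uncalled difference crossed 0 had these ranges. In CTCF AID at 24 h against 0 h they were -0.083 to 0.003 for Atf4, -0.017 to 0.160 for Atf5 and -0.258 to 0.050 for Ddit3. In RAD21 AID they were -0.677 to 0.950 for Slc7a11 at 24 h against 12 h, -0.022 to 1.605 for Slc7a11 and -0.017 to 0.056 for Trib3 at 12 h, and -0.010 to 0.065 for Chac1 at 24 h. In serum they were -0.035 to 0.025 for Atf4, -0.038 to 0.140 for Trib3, -0.027 to 0.071 for Chac1 and -0.029 to 0.339 for Slc7a11. With the Chd4 hairpin Chac1 ran from -0.355 to 0.107. For IAA, Ddit3 in the control ran from -0.061 to 0.086 and Atf4 with wild-type CTCF from -0.056 to 0.007. For wild-type CTCF without IAA they were -0.020 to 0.042 for Atf4, -0.050 to 0.139 for Ddit3, -0.004 to 0.059 for Trib3 and -0.013 to 0.017 for Asns. For Slc7a11 with mutated CTCF they were -0.173 to 0.548 without IAA and -0.523 to 0.011 with it. For wild-type CTCF with IAA they were -0.042 to 0.039 for Chac1 and -0.090 to 0.005 for Slc7a11. In the wild-type interaction they were -0.087 to 0.139 for Atf5, -0.024 to 0.066 for Nupr1 and -0.006 to 0.008 for Psat1, and in the mutated one -0.079 to 0.003 for Atf4. Depth is unknown, and Slc7a11, at 13.4 to 82.8 normalised counts, is the gene whose libraries of a group differed most in relative terms.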
